A study of Mus musculus with 10 samples.

Results

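The lysosome is the acidic compartment in which cells break down proteins, glycans and lipids. Soluble hydrolases do the cutting, most of them reach the lysosome by mannose 6-phosphate sorting, a proton pump (the V-ATPase) keeps the lumen acidic, and heavily glycosylated membrane proteins line the compartment. TFEB and its relatives are transcription factors that switch on many of these genes through the CLEAR element, a promoter motif that holds CACGTG, and mTORC1 holds TFEB in the cytoplasm in fed cells. Fibroblasts take up and degrade matrix in their lysosomes, and much of what is known of lysosomal storage disease was learned in them.

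The genes described here are 35 lysosomal enzymes and membrane proteins, chosen as a list by name from the 22552 genes in the deposited expression tables, and followed over 4 groups of mouse embryonic fibroblasts. They comprise 7 proteases, 8 glycosidases, 6 enzymes of glycosaminoglycan breakdown, 4 lipid-degrading enzymes or activators, 6 membrane proteins, 2 proton pump subunits, and the regulator Tfeb with the secreted protein Grn. All 35 were found, Tfeb under its older symbol Tcfeb. Of these, 34 had a mean of at least 1 FPKM (fragments mapped to a transcript, divided by its length and by the depth of the library) and were tested. The exception was Ctsz, cathepsin Z, which was listed at 0.0953 FPKM or less in every library, with 0 to 3 reads.

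The study asked how the cold-inducible RNA-binding proteins Cirbp and Rbm3 bind and influence mRNA. Polyadenylated RNA was sequenced with 76 bp single-end reads in 8 libraries, 2 in each of 4 groups: mock transfection with cells kept at 37 °C, the same with cells at 32 °C, siRNA against Cirbp at 37 °C (siCirbp), and siRNA against Rbm3 at 37 °C (siRbm3). Binding was mapped by PAR-CLIP, in which RNA labelled with 4-thiouridine (100 µM for 16 h) is crosslinked to protein and pulled down, in 1 library each of fibroblasts stably expressing FLAG-tagged Cirbp or FLAG-tagged Rbm3, both at 37 °C. Both siRNA groups were set against mock-transfected cells and not against a control siRNA, the time spent at 32 °C is not given in the sources used here, and nothing in the labels tells whether paired libraries came from separate cultures or, for the siRNAs, from different oligos. What the p-values measure is thus the library-to-library spread, which may be technical.

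The libraries held 24799931 to 27799707 mapped fragments. Of 11 fibroblast markers, 10 reached a mean of 1 FPKM and Thy1 was listed at 0 in all 8 libraries. The markers of macrophages and osteoclasts, cells rich in lysosomes, were near 0: 18 of 19 were under 1 FPKM in every library and 4 were at 0 in all, leaving Cd14. As a check of the labels, Cirbp itself measured 15.9 and 17.2 FPKM at 37 °C and 34.5 and 37.2 at 32 °C in mock cells, and 10.8 and 6.07 after its siRNA. Both siCirbp libraries were thus below mock 37 °C for Cirbp, but this drop was not called by limma at an adjusted p under 0.05. For Rbm3 the values were 1.85 and 2.21 FPKM at 37 °C and 3.64 and 3.20 at 32 °C in mock cells, and 3.05 and 1.16 under the siRbm3 label. In the other siRNA group each was also measured: Rbm3 was highest of all in siCirbp, at 5.54 and 7.55 FPKM (limma adjusted p = 0.0588 against mock 37 °C), and Cirbp was at 13.8 and 23.8 FPKM in siRbm3. Replicate 1 of siRbm3, at 3.05 FPKM, lay above both warm mock values of Rbm3, against its label, so siRbm3 below stands for what the labels say and not for a shown loss of Rbm3.

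The list held some of the most abundant mRNAs of these cells. In mock 37 °C the mean was 532 FPKM for Psap (SD 20.7, n = 2), 444 for Ctsl (SD 2.01, n = 2), 375 for Lamp1 (SD 9.86, n = 2) and 323 for Ctsd (SD 18.2, n = 2), each at or above 99.06% of the tested genes. Idua, Sgsh and Manba were the scarcest of the tested members, at means of 2.22, 3.69 and 4.94 FPKM. Summed over the list, the members took 0.859% and 0.849% of all FPKM at 37 °C and 1.00% and 0.970% at 32 °C in mock cells, 0.939% and 0.747% after Cirbp siRNA, and 0.858% and 0.960% in the siRbm3 pair. The 32 °C libraries were the highest 2 of the 8, by a margin smaller than the gap between the 2 siCirbp libraries.

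Promoters of 5 members are shown because they carry the CLEAR core CACGTG (capitals) and because their genes went different ways at 32 °C: Lamp1, with the most copies, did not pass the test, Ctsd and Gla rose, and Gaa and Mcoln1 fell. Each runs 5′ to 3′ on the gene's strand, from 250 bases before to 50 bases after the annotated start, from RefSeq on GRCm38.p6.
Lamp1, chr8:13158911-13159210, plus strand: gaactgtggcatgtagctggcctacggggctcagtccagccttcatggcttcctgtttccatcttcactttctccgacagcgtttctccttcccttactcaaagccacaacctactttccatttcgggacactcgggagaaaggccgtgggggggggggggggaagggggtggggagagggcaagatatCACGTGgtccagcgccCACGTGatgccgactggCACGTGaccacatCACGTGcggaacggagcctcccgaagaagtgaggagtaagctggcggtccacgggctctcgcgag
Ctsd, chr7:142387778-142388077, minus strand: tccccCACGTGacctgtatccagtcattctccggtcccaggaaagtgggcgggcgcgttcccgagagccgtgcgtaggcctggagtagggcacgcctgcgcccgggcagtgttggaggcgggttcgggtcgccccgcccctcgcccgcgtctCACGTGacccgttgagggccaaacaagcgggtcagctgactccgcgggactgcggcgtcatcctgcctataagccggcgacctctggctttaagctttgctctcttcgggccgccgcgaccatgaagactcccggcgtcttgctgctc
Gla, chrX:134600956-134601255, minus strand: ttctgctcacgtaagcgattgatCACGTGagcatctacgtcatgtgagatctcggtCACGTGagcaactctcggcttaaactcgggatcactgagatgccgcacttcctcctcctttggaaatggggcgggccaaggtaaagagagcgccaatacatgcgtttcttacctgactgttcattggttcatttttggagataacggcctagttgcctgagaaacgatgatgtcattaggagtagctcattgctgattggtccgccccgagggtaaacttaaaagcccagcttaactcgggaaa
Gaa, chr11:119267713-119268012, plus strand: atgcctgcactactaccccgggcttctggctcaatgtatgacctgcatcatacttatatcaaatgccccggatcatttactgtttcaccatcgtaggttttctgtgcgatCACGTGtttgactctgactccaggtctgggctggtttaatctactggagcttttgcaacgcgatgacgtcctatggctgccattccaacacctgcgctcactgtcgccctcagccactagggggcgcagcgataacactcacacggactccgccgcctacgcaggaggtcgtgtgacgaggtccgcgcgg
Mcoln1, chr8:3500269-3500568, plus strand: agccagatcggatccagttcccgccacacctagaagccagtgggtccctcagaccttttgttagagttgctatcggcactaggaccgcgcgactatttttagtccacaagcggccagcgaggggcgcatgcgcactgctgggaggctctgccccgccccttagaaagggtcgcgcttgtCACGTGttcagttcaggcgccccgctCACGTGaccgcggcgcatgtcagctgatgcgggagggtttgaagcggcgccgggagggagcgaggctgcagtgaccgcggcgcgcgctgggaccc

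The 4 copies in the Lamp1 window began 61, 45, 28 and 15 bases before the start, and the 2 in Mcoln1 began 71 and 45 bases before it. A window was given for 33 of the 35 members. CACGTG, a palindrome that reads the same on both strands, was in 13 of them (39.4%): Atp6v0d1, Atp6v1a, Ctsa, Ctsd, Ctsl, Gaa, Gla, Glb1, Lamp1, Lgmn, Mcoln1, Naglu and Sgsh. Counted by gene in the same way, it was in 8.09% of all 27025 genes with a window and in 12.3% of 7725 tested genes with a window. Counted by window, it was in 7.15% of all 32851 windows of this length. The longer TCACGTG, searched on both strands and always overlapping CACGTG, was in 12 of 33 members (36.4%). It was in 7.44% of tested genes with a window, 4.29% of all genes with a window and 3.77% of all windows. By direction at 32 °C, CACGTG was in 4 of 9 members that rose, 2 of 8 that fell and 7 of 15 tested members that did neither, and in 14.5% of all tested genes that rose and 10.5% of those that fell. The windows of Tfeb, Psap, Grn, Hexa, Lamp2 and Cd63 held no CACGTG, which says only that these letters are not in those 300 bases.

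At 32 °C members changed in both directions, as tested genes did in general, and the share called lower was near that of all tested genes. Of 34 tested members, 18 changed (52.9%, against 32.8% of all 10901 tested genes), 10 of them higher (29.4%, against 13.0%) and 8 lower (23.5%, against 19.8%), by limma with Benjamini-Hochberg adjustment over all tested genes and a threshold of 0.05. Aspartic and cysteine proteases and the abundant membrane glycoproteins Lamp2, Cd63 and Scarb2 were among those that rose, while the glycogen-degrading Gaa, the saposin precursor Psap, Grn, the calcium channel Mcoln1 and Tfeb itself were among those that fell. Directions over all tested genes depended on the scaling: 1420 were called higher and 2153 lower as fitted, but 2110 and 1721 after median centring, where 11 members were higher and 6 lower. The median log2 fold change was 0.12 over the members and -0.02 over all tested genes, and the median absolute change was 0.60 against 0.45. Fold changes here and below are on the log2(FPKM + 1) scale, which understates changes of low genes. The 2 groups of libraries did not overlap for 30 of 34 members (88.2%, against 84.9% of all tested genes), 16 with the cold libraries higher (41.0% of tested genes) and 14 with them lower (43.8%).

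**Figure D1:**
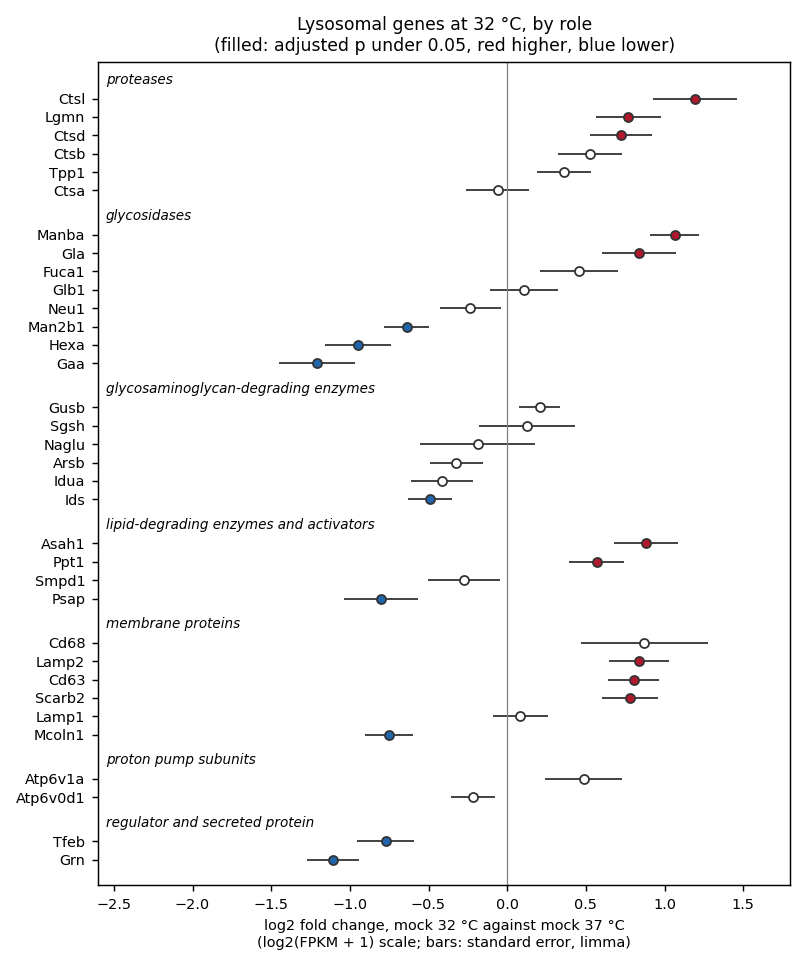
Log2 fold change of 34 lysosomal genes between mock 32 °C and mock 37 °C (x axis, log2(FPKM + 1) scale), grouped by role; points are limma estimates from 2 libraries a group and bars are standard errors, with red for genes called higher, blue for genes called lower and white for genes not called. Every protease but Ctsa lies to the right of 0, and both directions are filled among glycosidases, lipid-degrading enzymes and membrane proteins.

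Among 6 tested proteases, 3 rose (50%, against 13.0% of all tested genes) and none fell (against 19.8%). Ctsb and Tpp1 passed neither way with positive estimates, and Ctsa was near 0. Ctsl, the cysteine protease cathepsin L (chr13:64464522-64471614, mm9), measured 442 and 445 FPKM at 37 °C and 931 and 1108 at 32 °C in mock cells, 414 and 324 after Cirbp siRNA, and 317 and 539 in the siRbm3 pair. Both 32 °C libraries lay far above the other 6. The log2 fold change at 32 °C was 1.19 (SE 0.27, limma adjusted p = 0.0153). Ctsd, the aspartic protease cathepsin D (chr7:149561821-149573775, mm9), measured 310.2 and 336 FPKM at 37 °C and 488 and 582 at 32 °C in mock cells, 443 and 355 after Cirbp siRNA, and 411 and 515 in the siRbm3 pair. Its 32 °C libraries lay above both mock 37 °C libraries but overlapped siRbm3, and the rise at 32 °C was 0.72 (SE 0.20, limma adjusted p = 0.0283). Lgmn, the asparagine-specific protease legumain that matures several cathepsins, measured 46.5 and 49.9 FPKM at 37 °C and 80.2 and 85.7 at 32 °C in mock cells, 48.3 and 39.1 after Cirbp siRNA, and 40.4 and 59.1 in the siRbm3 pair. It too was highest in the 2 cold libraries, with a log2 fold change of 0.77 (SE 0.21, limma adjusted p = 0.0269).

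The cysteine protease cathepsin B, Ctsb, went from 87.2 and 91.8 FPKM to 121 and 138, without overlap, but its log2 fold change of 0.53 (SE 0.20) did not pass (limma adjusted p = 0.0859). Tpp1, the tripeptidyl peptidase lost in a form of neuronal ceroid lipofuscinosis, had an estimate of 0.36 that did not pass. Ctsa, the protective protein that stabilises Neu1 and Glb1, had an estimate of -0.06, with overlapping libraries. Ctsa and Ctsb overlap other listed genes on the genome (Neurl2 and Pltp, and Fdft1), so their reads may be shared.

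The 8 glycosidases went both ways, 2 higher (25%, against 13.0% of all tested genes) and 3 lower (37.5%, against 19.8%). Manba, beta-mannosidase, measured 4.97 and 4.92 FPKM at 37 °C and 10.98 and 11.89 at 32 °C in mock cells, 6.002 and 6.05 after Cirbp siRNA, and 5.58 and 6.91 in the siRbm3 pair. The cold libraries were clear of the other 6, and the log2 fold change of 1.06 had a small error (SE 0.15, limma adjusted p = 0.00431). Gla, the alpha-galactosidase A deficient in Fabry disease, measured 14.7 and 15.2 FPKM at 37 °C and 25.3 and 29.9 at 32 °C in mock cells, 24.2 and 15.5 after Cirbp siRNA, and 17.3 and 23.4 in the siRbm3 pair. All 6 libraries outside mock 37 °C lay above it, and the rise at 32 °C was 0.84 (SE 0.24, limma adjusted p = 0.0326).

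Gaa, the acid alpha-glucosidase that degrades glycogen in lysosomes and is deficient in Pompe disease (chr11:119129281-119147012, mm9), measured 55.2 and 64.9 FPKM at 37 °C and 26.3 and 24.4 at 32 °C in mock cells, 65.9 and 42.1 after Cirbp siRNA, and 64.9 and 85.7 in the siRbm3 pair. Both cold libraries were below all others, and the log2 fold change was -1.21 (SE 0.24, limma adjusted p = 0.0105). Hexa, the alpha subunit of beta-hexosaminidase deficient in Tay-Sachs disease, measured 31.7 and 33.7 FPKM at 37 °C and 15.2 and 17.8 at 32 °C in mock cells, 48.0 and 36.4 after Cirbp siRNA, and 39.1 and 54.6 in the siRbm3 pair. The cold libraries were again the lowest, with a log2 fold change of -0.95 (SE 0.21, limma adjusted p = 0.0146). Man2b1, lysosomal alpha-mannosidase, measured 12.2 and 13.0 FPKM at 37 °C and 7.32 and 8.18 at 32 °C in mock cells, 14.6 and 15.1 after Cirbp siRNA, and 14.7 and 16.3 in the siRbm3 pair. It fell at 32 °C by 0.64 on the log2 scale (SE 0.14, limma adjusted p = 0.0147), opposite in direction to Manba, the other mannosidase on the list. Fuca1 (alpha-fucosidase), Glb1 (beta-galactosidase) and Neu1 (sialidase) had estimates of 0.46, 0.10 and -0.23 and did not pass. The locus of Glb1 also holds Tmppe, with which it may share reads.

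Of 6 enzymes of glycosaminoglycan breakdown, 1 was called lower at 32 °C (16.7%, near the 19.8% of all tested genes) and none higher (against 13.0%). Ids, iduronate 2-sulfatase, measured 28.8 and 26.5 FPKM at 37 °C and 19.9 and 18.9 at 32 °C in mock cells, 27.1 and 25.2 after Cirbp siRNA, and 32.3 and 27.9 in the siRbm3 pair. Its cold libraries lay below the other 6, with a log2 fold change of -0.49 (SE 0.14, limma adjusted p = 0.0341). That call was lost by quantile normalization, by median centring and with the length trend removed. The other 5 had estimates of -0.41 for Idua (alpha-iduronidase), -0.32 for Arsb (arylsulfatase B), -0.19 for Naglu (N-acetylglucosaminidase), 0.13 for Sgsh (sulfamidase) and 0.21 for Gusb (beta-glucuronidase). Idua and Sgsh were the scarcest tested members and overlap Slc26a1 and Card14 on the genome.

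Lipid degradation held members in both directions. Asah1, acid ceramidase, measured 69.4 and 66.4 FPKM at 37 °C and 115 and 138 at 32 °C in mock cells, 75.8 and 57.2 after Cirbp siRNA, and 66.3 and 50.1 in the siRbm3 pair. The cold libraries were the highest 2 of the 8, and the rise was 0.88 (SE 0.20, limma adjusted p = 0.0169). Ppt1, the thioesterase that removes palmitate from proteins, measured 19.6 and 18.4 FPKM at 37 °C and 27.3 and 30.1 at 32 °C in mock cells, 34.5 and 26.8 after Cirbp siRNA, and 31.1 and 25.3 in the siRbm3 pair. Every library outside mock 37 °C lay above it, and the log2 fold change at 32 °C was 0.57 (SE 0.18, limma adjusted p = 0.0430).

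Psap, the precursor of the saposins that present sphingolipids to their hydrolases (chr10:59740376-59765348, mm9), measured 517 and 546 FPKM at 37 °C and 291 and 317 at 32 °C in mock cells, 633 and 438 after Cirbp siRNA, and 527 and 736 in the siRbm3 pair. It was the most abundant member in mock 37 °C, and both cold libraries lay below all others. The log2 fold change was -0.80 (SE 0.24, limma adjusted p = 0.0361). Acid sphingomyelinase, Smpd1, had an estimate of -0.27 and did not pass.

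Among the 6 membrane proteins, 3 rose (50%, against 13.0% of all tested genes) and 1 fell (16.7%, near the 19.8% of all tested genes). Lamp2 (chrX:35758241-35809632, mm9), a main glycoprotein of the lysosomal membrane with a role in chaperone-mediated autophagy, measured 251 and 240.1 FPKM at 37 °C and 400.5 and 480.3 at 32 °C in mock cells, 270.3 and 225 after Cirbp siRNA, and 238 and 184 in the siRbm3 pair. Its cold libraries were clear of the rest, with a rise of 0.84 (SE 0.19, limma adjusted p = 0.0164). Its partner Lamp1 (chr8:13159135-13175338, mm9) measured 368 and 382 FPKM at 37 °C and 373 and 423 at 32 °C in mock cells, 505 and 429 after Cirbp siRNA, and 454 and 550.2 in the siRbm3 pair. Here the mock groups overlapped and the estimate was 0.08 (SE 0.17), which did not pass, so that Lamp1 exceeded Lamp2 in both mock 37 °C libraries and was below it in both mock 32 °C libraries.

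Cd63, a tetraspanin of late endosomes and exosomes, measured 58.9 and 61.3 FPKM at 37 °C and 102 and 110.0 at 32 °C in mock cells, 63.0 and 60.2 after Cirbp siRNA, and 44.9 and 58.2 in the siRbm3 pair. The 2 cold libraries were clear of the other 6, and the rise was 0.80 (SE 0.16, limma adjusted p = 0.0109). Scarb2 (LIMP-2), a glycoprotein of the lysosomal membrane, measured 28.7 and 26.9 FPKM at 37 °C and 47.3 and 49.6 at 32 °C in mock cells, 24.9 and 26.2 after Cirbp siRNA, and 27.6 and 39.1 in the siRbm3 pair. The cold libraries were highest, with a rise of 0.78 (SE 0.18, limma adjusted p = 0.0166). Mcoln1 (chr8:3500519-3515231, mm9), the channel TRPML1 that releases lysosomal calcium, measured 18.7 and 20.9 FPKM at 37 °C and 10.4 and 12.4 at 32 °C in mock cells, 23.7 and 22.1 after Cirbp siRNA, and 24.7 and 27.9 in the siRbm3 pair. Its direction was the opposite, with the cold libraries lowest and a log2 fold change of -0.75 (SE 0.15, limma adjusted p = 0.0113).

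Cd68, a glycoprotein best known from macrophages, went from 10.1 and 9.88 FPKM to 17.3 and 21.0, without overlap, but its log2 fold change of 0.87 had a standard error of 0.40 and did not pass (limma adjusted p = 0.134). The summed level of the 19 macrophage and osteoclast markers was 7.85 to 11.5 FPKM at 37 °C and 14.0 to 15.5 at 32 °C in mock cells, 8.20 to 12.04 after Cirbp siRNA and 6.25 to 10.1 in the siRbm3 pair, nearly all of it from Cd14. Macrophage markers at 0 in all 8 libraries were Emr1, Tyrobp, C1qb and C1qc. The 2 proton pump subunits did not pass, with estimates of 0.49 for Atp6v1a and -0.22 for Atp6v0d1.

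**Figure D2:**
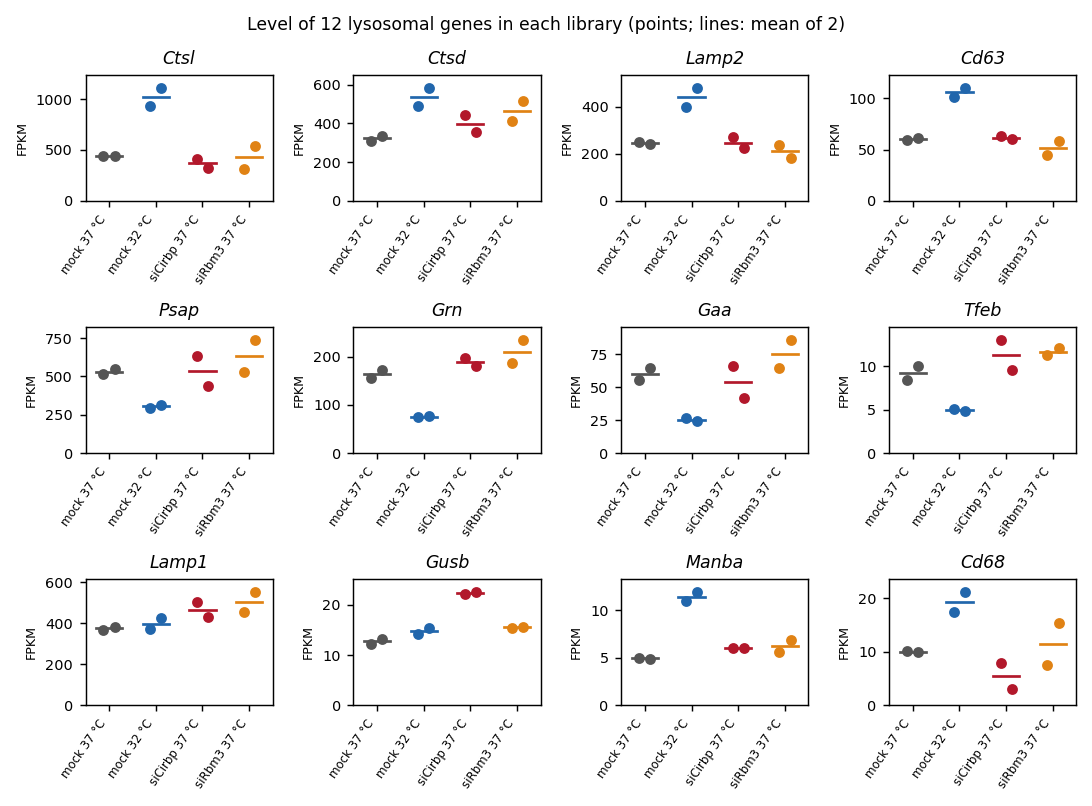
FPKM (y axis, from 0) of 12 lysosomal genes in each of 8 libraries (points) with the mean of each group (lines), by group on the x axis. Ctsl, Lamp2, Cd63 and Manba are highest and Psap, Grn, Gaa and Tfeb lowest in the 2 mock 32 °C libraries, and Gusb is highest in the 2 siCirbp libraries.

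The regulator Tfeb (chr17:47873986-47929365, mm9) measured 8.38 and 10.04 FPKM at 37 °C and 5.05 and 4.87 at 32 °C in mock cells, 13.0 and 9.55 after Cirbp siRNA, and 11.3 and 12.1 in the siRbm3 pair. Both cold libraries were below the other 6, and the log2 fold change was -0.77 (SE 0.18, limma adjusted p = 0.0179). Grn (chr11:102291636-102298123, mm9), the secreted and lysosomal protein progranulin, measured 156 and 173 FPKM at 37 °C and 73.8 and 77.8 at 32 °C in mock cells, 197 and 180.0 after Cirbp siRNA, and 186 and 234 in the siRbm3 pair. The cold libraries held less than any other, and the log2 fold change of -1.11 had one of the smallest errors relative to its size (SE 0.16, limma adjusted p = 0.00464).

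Other measures moved with temperature too. The 8 proliferation markers all fell at 32 °C by limma, from a sum of 258 FPKM in each mock 37 °C library to 63.2 and 70.9. The summed fibroblast markers went from 6017 and 6184 FPKM to 4429 and 4370.35. Vim (2889 and 2972 FPKM at 37 °C, 1948 and 1828 at 32 °C), Col1a1 and Fn1 were among those with lower values. Dcn, Col3a1 and Pdgfra had higher values. In bulk RNA, fewer cells of a type and less RNA per cell cannot be told apart, and the part of these differences in the members' changes was not tested. Across 10901 genes, the fold change at 32 °C was also related to transcript length, with Spearman's rho -0.342 (genes are not independent replicates). The members that rose had a median length of 2180.5 nt, those that fell 2465 nt, and all tested genes 2762 nt. With the length trend removed, 18 members still passed, 16 of them the same.

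Each of the 18 calls at 32 °C was lost when 1 mock library or another was left out. Without replicate 1 of either mock group, only Grn and Manba were called, and without replicate 2 of either none was, although no called member changed sign. Psap was also lost by median centring, Lamp2, Psap and Tfeb when each gene was read from its highest transcript only, Man2b1 with the length trend removed, and all 18 with no filter on low values.

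**Figure D3:**
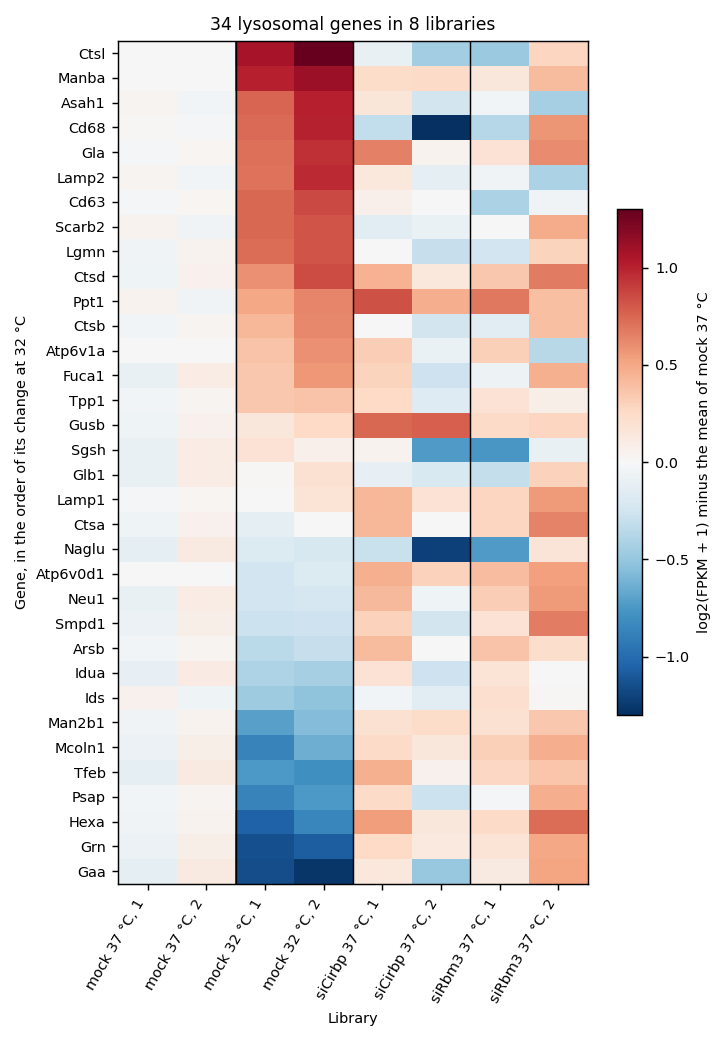
Level of 34 lysosomal genes (rows, in the order of their change at 32 °C) in 8 libraries (columns), as log2(FPKM + 1) minus the mean of mock 37 °C, from blue (lower) to red (higher), with colours saturating at 1.3 either way. The 2 mock 32 °C columns match each other, whereas the 2 columns of each siRNA group differ, siCirbp 1 being redder than siCirbp 2 and siRbm3 2 redder than siRbm3 1 in most rows.

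In siCirbp 1 member changed against mock 37 °C, Gusb, beta-glucuronidase (2.94% of 34, against 3.39% of all tested genes, and 2.77% in the higher direction). Gusb (chr5:130464891-130478698, mm9) measured 12.3 and 13.2 FPKM at 37 °C and 14.3 and 15.5 at 32 °C in mock cells, 22.1 and 22.5 after Cirbp siRNA, and 15.4 and 15.7 in the siRbm3 pair. The siCirbp libraries were the highest 2 of the 8. The log2 fold change was 0.76 (SE 0.13, limma adjusted p = 0.0364). Ppt1 came next, with 0.65 (SE 0.18, limma adjusted p = 0.0828), and then Atp6v0d1 with 0.38 (limma adjusted p = 0.156). These 3 were the members with an unadjusted p under 0.05 (8.82%, against 24.2% of all tested genes). Ctsl was below mock in both siCirbp libraries, by an estimate of -0.28, and Cd68 by -0.87, and neither passed. The median over the members was 0.04, against 0.08 over all tested genes, and libraries did not overlap for 16 members (47.1%, against 60.4%), with siCirbp higher for 11 (38.5% of tested genes) and lower for 5 (21.9%). The call of Gusb was lost when any 1 of the 4 mock libraries or replicate 2 of siCirbp was left out, with the length trend removed, with the replicate block, with only the 2 groups compared and with no filter on low values. The sum of the proliferation markers was 551 to 580 FPKM in siCirbp, and that of the fibroblast markers 3564 to 4224 against 6017 to 6184 in mock 37 °C, with Dcn called lower. The part of these and of the higher Rbm3 in the rise of Gusb was not tested.

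The libraries labelled siRbm3 gave no call, by limma, among the members (0 of 34) or among all tested genes (0%). An unadjusted p under 0.05 was reached by 6 members (17.6%, against 13.3% of all tested genes), all higher: Ctsa, Ctsd, Ppt1, Lamp1, Mcoln1 and Atp6v0d1, with limma adjusted p from 0.350 to 0.374. Their log2 fold changes ran from 0.39 for Mcoln1 to 0.54 for Ppt1. The siRbm3 libraries lay wholly above mock 37 °C for 18 members (37.2% of tested genes) and wholly below for 3 (13.3%), together 61.8% against 50.5%. The median was 0.25 over the members and 0.12 over all tested genes. Both siRNA comparisons use the same 2 mock libraries, so members above mock in both, such as Ctsd, Ppt1, Lamp1, Atp6v0d1, Hexa and Gla, are not independent observations.

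Set against each other, siCirbp and siRbm3 gave no called member by limma (0 of 34, against 0.0367% of all tested genes). The 2 members with an unadjusted p under 0.05 were Gusb, with 0.49 higher in siCirbp (limma adjusted p = 0.225), and Cd68, with -0.97 (limma adjusted p = 0.323). Libraries did not overlap for 5 members (14.7%, against 36.3%). Without replicate 1 of siRbm3, Scarb2 was called lower in siCirbp.

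The 2 siCirbp libraries differed in 1 direction across most of the list. Replicate 1 exceeded replicate 2 for 30 of 34 members in siCirbp, where 50.7% of all tested genes did so, and for 8 of 34 in siRbm3, where 41.1% did. In mock 37 °C and mock 32 °C it was 8 and 6 members (37.4% and 33.8% of tested genes). The median absolute difference between replicates was 0.37 on the log2 scale in each siRNA group, against 0.09 in mock 37 °C and 0.12 in mock 32 °C. Over all tested genes it was 0.26 in siCirbp, 0.31 in siRbm3, 0.09 in mock 37 °C and 0.11 in mock 32 °C, so the siRNA libraries were wider apart in general. The widest gap was that of Cd68, at 7.82 and 3.11 FPKM in siCirbp and 7.48 and 15.3 in siRbm3. Naglu stood at 12.1 and 5.89 FPKM in siCirbp and 8.58 and 17.0 in siRbm3, with the same libraries low.

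The rest of the pathway was read from 7 lists that hold no member. At 32 °C, 6 of 15 tested V-ATPase subunits rose (40.0%, against 13.0% of all tested genes) and none fell, among them Atp6ap2 (1.01), Atp6v1h (0.98), Atp6v1e1 (0.89) and Atp6v1d (0.77). The list named for mannose 6-phosphate sorting, which also holds subunits of the separate adaptor AP-3, went the other way. In it 6 of 13 fell (46.2%, against 19.8%) and none rose. Among those that fell were the adaptors Gga1 (-1.04) and Gga3 (-0.68) and the AP-3 subunits Ap3d1 (-0.80) and Ap3b1 (-0.68). Other hydrolases had 4 of 23 higher (17.4%, near the 13.0% of all tested genes) and none lower, among them Acp2 (0.87), Dnase2a (0.82) and the sulfatase activator Sumf1 (0.64). Their medians were 0.51, -0.38 and 0.19, against -0.02 for all tested genes. Each gene named with a log2 fold change in parentheses passed the limma threshold.

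Lysosomal transporters and membrane proteins were mixed. Of 21, 7 were higher (33.3%, against 13.0% of all tested genes) and 4 lower (19.05%, near the 19.8% of all tested genes). Among them were Ostm1 at 1.20, Laptm4b at 0.79, Mfsd8 at 0.76 and the cholesterol exporter Npc1 at -0.75. Of 19 MiT/TFE factors, Rag and mTORC1 genes, 4 rose (21.05%, against 13.0% of all tested genes) and 3 fell (15.8%, against 19.8%). Tfe3, the close relative of Tfeb, fell with it (-0.99), as did Tsc2 (-0.92), a brake on mTORC1, while Rheb, its activator, rose (0.87) with Lamtor3 (0.76). Of 30 autophagy genes, 6 rose (20%, against 13.0%) and 6 fell (20%, near the 19.8% of all tested genes). Among them were Atg5 at 0.65, Atg16l1 at 0.60, Atg9a at -0.91 and Vps18 at -0.88. In all, 29 of 124 tested genes of the 7 lists rose (23.4%, against 13.0% of all tested genes) and 19 fell (15.3%, against 19.8%). By limma none of the 124 was called in siCirbp, in siRbm3 or between them, where 29, 24 and 10 had an unadjusted p under 0.05 (23.4%, 19.4% and 8.06%, against 24.2%, 13.3% and 15.2% of all tested genes).

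The pump subunits and the sorting genes kept these directions under the other scalings and with the length trend removed, where 7 subunits rose and 5 sorting genes fell. Without either mock 37 °C library, or without replicate 2 of mock 32 °C, no gene of these 2 lists was called.

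**Figure D4:**
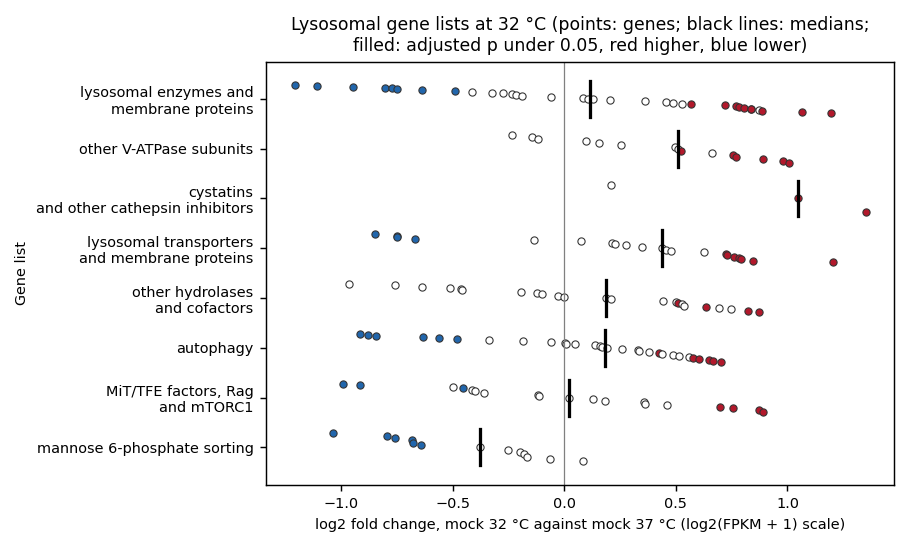
Log2 fold change between mock 32 °C and mock 37 °C (x axis, log2(FPKM + 1) scale) of each tested gene (points) in the 35-gene list and 7 other lysosomal lists (rows), with list medians as black lines, red for genes called higher and blue for genes called lower. V-ATPase subunits are filled only in red and genes of the list named for mannose 6-phosphate sorting only in blue.

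PAR-CLIP gave 1941 sites for Cirbp and 2118 for Rbm3. The loci of the 35 members held 2 Cirbp sites, in 2 genes (5.71%, against 8.32% of tested genes with a site), and no Rbm3 site (against 8.79%). The Lamp2 site (chrX:35772950-35772974, mm9) was 25 bp wide with a score of 482 as given by the authors, on a scale not given in the sources used here. This score was at or above that of 89.0% of Cirbp sites. The site was on the strand of the gene, 268 bp from the 3′ end of the 3603 nt transcript. The Gla site (chrX:131129854-131129895, mm9) was 42 bp wide, with a score of 260, at or above 39.3% of sites, and lay 7156 bp from the 3′ end of the gene. Binding was mapped at 37 °C only. Both genes rose at 32 °C, and in siCirbp their log2 fold changes were 0.01 for Lamp2 and 0.35 for Gla, and neither passed.

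Several listed transcripts were given for 6 members, and 5 of them (Psap, Gaa, Tfeb, Ctsa and Lamp2) entered a fit of transcript shares. None of their 10 transcripts changed its share in any comparison by limma (0.238% of 2936 transcripts were called at 32 °C, and 0% in the others). At 32 °C an unadjusted p under 0.05 was reached by 0 of the 10. In siCirbp against mock 37 °C the 2273 nt Tfeb transcript reached it (limma unadjusted p = 0.0235). Between siCirbp and siRbm3 the 2332 and 2273 nt Tfeb transcripts did (limma unadjusted p = 0.0135 and 0.00512). The smallest in siRbm3 against mock 37 °C was 0.253, by limma. The Lamp2 transcript of 3603 nt, which holds the Cirbp site near its 3′ end, measured 151 and 141 FPKM at 37 °C and 245 and 282 at 32 °C in mock cells, 165 and 159.5 after Cirbp siRNA, and 168 and 86.8 in the siRbm3 pair. The 1768 nt transcript, which ends farther downstream, measured 99.3 and 98.9 FPKM at 37 °C and 155 and 199 at 32 °C in mock cells, 105 and 65.7 after Cirbp siRNA, and 69.6 and 97.4 in the siRbm3 pair. Both forms were higher at 32 °C, with a log2 ratio difference of 0.02 (SE 0.51, limma adjusted p = 0.987).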

How the data were processed

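Transcript FPKM values (deposited by the authors, per the file headers, with coverage, a signal from which 24799931 to 27799707 mapped fragments per library were derived) were summed per gene. TopHat 1.1.2 is named in the submitters' processing notes. Limma 3.58.1 was fitted to log2(FPKM + 1) of 10901 genes at or above 1 FPKM on average across the 8 libraries, with 4 group means (4 residual degrees of freedom), trended robust empirical Bayes, two-sided tests and Benjamini-Hochberg adjustment (threshold 0.05). The fit was tested on simulated data with the same spread in every group. The siRNA libraries here were wider apart than the mock ones, so that test does not cover unequal spread. FPKM depends on the transcript lengths the authors used, and reads of overlapping genes may be shared. PAR-CLIP sites with the authors' deposited score were assigned to loci by at least 1 bp. Locus coordinates are mm9, 1-based. Promoters and strands are RefSeq's, on GRCm38.p6. The labels do not say whether replicate numbers pair libraries, and the main fit used no pairing. Deviations of same-numbered libraries from their group means had r of -0.153 to 0.0914, which does not settle it. All 35 members are named. Up to 4 genes of each other list, those with the smallest adjusted p, are named, and some results for genes of those lists are not reported here. Members and lists were chosen with earlier results of these data known.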

Additional observations from a re-analysis of the deposited data

How the results depend on the processing

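With 2 libraries a group, 4 residual degrees of freedom limit every call, and FPKM was the deposited unit, so counting noise was not modelled. At 32 °C the 18 calls became 18 with a pseudocount of 0.1, 18 by quantile normalization (Ids lost, Atp6v0d1 gained), 17 by median centring (Ids and Psap lost, Ctsb gained, with the median of all genes moved by 0.125), 18 with the length trend removed (Ids and Man2b1 lost, Ctsb and Tpp1 gained), 15 with the highest transcript of each gene only (Lamp2, Psap and Tfeb lost), 27 with only the 2 groups compared and 0 with no filter on low values. The count of all called genes was 60 with no filter and 7557 with only the 2 groups compared. The members' median was 0.195 by quantile normalization and 0.241 by median centring. For siCirbp, Gusb was not called with no filter, with the length trend removed or with only the 2 groups compared (0 members each), and 2 members were called without both siRbm3 libraries, an alternative chosen after seeing the data. All called genes then numbered 43, 112, 13 and 1611, and 217 with the highest transcript only. For siRbm3, all called genes numbered 35 with no filter, 2 with the length trend removed, 2 with the highest transcript only and 5 with only the 2 groups compared, and the members' median was 0.130 by quantile normalization. For siCirbp against siRbm3 they numbered 43 with no filter and 7 with only the 2 groups compared. Cirbp sites in member loci fell to 1 when only sites at or above the median score were kept. The causes were not tested.

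Leaving out 1 library at a time, with a lone library assumed to vary like the other groups, gave 0 to 19 members, 395 to 5071 genes and a members' median of 0.0422 to 0.213 at 32 °C. For siCirbp it gave 0 to 2 members, 4 to 1612 genes and -0.0818 to 0.251. For siRbm3 it gave 0 to 951 genes and 0.18 to 0.39, and for siCirbp against siRbm3 0 to 1 members, 4 to 2132 genes and a median of -0.31 to -0.00. Single called members kept their call in 79 of these fits and lost it in 73. Under the other settings they kept it in 177 and lost it in 32, and none reversed.

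With the replicate number as a block, which the labels do not say pairs libraries, 16 members were called at 32 °C (without Gla and Psap) and 0 in each siRNA comparison, with 3183, 3, 0 and 3 genes called over all. A crossed pairing of siCirbp and siRbm3 called 1 member and 667 genes.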

Other observations

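Cystatins inhibit lysosomal cysteine proteases such as cathepsins B and L. Of 3 tested cystatins and other cathepsin inhibitors, 2 were called higher at 32 °C by limma (66.7%, against 13.0% of all tested genes). Cst3, the secreted cystatin C, measured 481 and 554 FPKM at 37 °C and 1168 and 1491 at 32 °C in mock cells, 509 and 384 after Cirbp siRNA, and 445 and 677 in the siRbm3 pair, with a log2 fold change of 1.35 (SE 0.26, limma adjusted p = 0.00962). Cstb, the cytosolic cystatin B, measured 281 and 296 FPKM at 37 °C and 523 and 684 at 32 °C in mock cells, 508 and 472 after Cirbp siRNA, and 452 and 383 in the siRbm3 pair, with 1.05 (SE 0.19, limma adjusted p = 0.00752). In both genes the cold libraries lay above both mock 37 °C libraries. Serpinb6a, also tested, measured 169 and 164 FPKM at 37 °C and 175 and 212 at 32 °C in mock cells and was not called.

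A short Tfeb transcript that starts downstream (chr17:47922693-47929365, mm9, 2273 nt) measured 0.000378 and 1.28 FPKM at 37 °C and 1.99 and 4.19e-05 at 32 °C in mock cells, 4.51 and 5.21 after Cirbp siRNA, and 0.000683 and 5.78e-05 in the siRbm3 pair. Between siCirbp and siRbm3 its log2 ratio to the rest of the gene differed by 3.38 (SE 0.79), with a limma adjusted p of 0.416. It was chosen for mention after its values were seen.

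Among the genes of the other lysosomal lists, Cirbp had PAR-CLIP sites in Mitf, Rheb and Ap1g1, and Rbm3 had sites in Atg12, Vps18 and Vps33a.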
